A study of Mus musculus with 3 samples.

Results

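The nuclear genes of the mitochondrial respiratory chain and ATP synthase were followed in single cells of day 5 heterotopic ossification (HO) masses. They were chosen by symbol and comprised 93 of the 31053 genes in the count files. Included were symbols that begin with Nduf, Uqcr or Atp5, the symbols Sdha to Sdhd, and symbols that begin with Cox4i, Cox5, Cox6, Cox7 or Cox8, while symbols with -ps or starting with Gm were left out. Of these genes, 36 were counted to complex I, 8 to the assembly of complex I (Ndufaf symbols), 4 to complex II, 8 to complex III, 20 to complex IV and 17 to complex V. Ndufa4 and Ndufa4l2 were placed in complex IV, where the Ndufa4 protein is known to reside.

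Complexes I and II pass electrons from NADH and succinate to ubiquinone, complex III hands them to cytochrome c, and complex IV passes them to oxygen. The proton gradient built along the way drives ATP synthesis by complex V. Cartilage forms with little oxygen, and chondrocytes are known for their reliance on glycolysis. Some subunits of complex IV have alternative versions: Cox4i2 replaces Cox4i1 in cells short of oxygen, and Ndufa4l2, a relative of Ndufa4, is a known target of hypoxia-inducible factor.

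Female CD-1 mice, 6 to 8 weeks old, received subcutaneous implants of Matrigel, a basement membrane gel, and the ectopic masses were harvested on day 5. The implants of the Vehicle and Palo groups also carried rhBMP2, a growth factor made as recombinant protein that sets off cartilage and bone formation at the implant, whereas those of the Matrigel-only group did not. The Vehicle group was given corn oil/DMSO by mouth and the Palo group 4 mg/kg of palovarotene, a retinoid agonist, while the Matrigel-only group received nothing by mouth. Vehicle and Matrigel-only thus differed in both rhBMP2 and oral vehicle, and these cannot be told apart. The cells of each group formed 1 library, so differences between conditions had no replicates behind them and were not tested. Intervals given below are exact 95% intervals that cover counting error only.

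The 3 libraries held 44252421 (Matrigel-only), 46317250 (Vehicle) and 46901673 (Palo) unique molecular identifiers (UMIs). After the filters stated in the study's methods, 8728, 5478 and 7297 cells remained, in the same order. The libraries shared 11 to 21 barcodes pairwise. Stromal cells were those with at least 1% of UMIs from Col1a1, Col1a2, Col3a1, Dcn and Lum, and numbered 2085 (Matrigel-only), 1373 (Vehicle) and 1184 (Palo). Macrophages were the other cells with a UMI of Csf1r or C1qa, and numbered 5812, 3253 and 5661. Vehicle stromal cells were split into 779 with and 594 without a UMI of Acan, the cartilage proteoglycan aggrecan. A list of 8 stromal genes summed to between 57586 and 89451 CPM (the UMIs of a gene as a share of all UMIs in the sum, times 1000000) in stromal cells and between 368 and 610 CPM in macrophages, but 5 of the 8 define the class. Of the 3 that do not, Pdgfra had 246, 89.2 and 205 CPM in Matrigel-only, Vehicle and Palo stromal cells and 2.06, 2.02 and 1.28 CPM in macrophages. A list of 8 macrophage genes summed to between 17786 and 23647 CPM in macrophages and between 278 and 840 CPM in stromal cells, and it also holds the 2 genes that define the class. Of the others, Cd68 had 462, 441 and 525 CPM in macrophages and 23.3, 9.37 and 21.1 CPM in stromal cells. The chondrocyte list summed to 55.3 CPM in Matrigel-only, 4234 CPM in Vehicle and 60.4 CPM in Palo stromal cells.

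All 93 genes matched the mouse annotation (GENCODE vM21, build mm10), and 86 of them reached 10 CPM in at least 1 class and library. Below that level lay Ndufaf6, Atp5s, Cox6a2, Cox7b2, Cox8b, Cox8c and the second of the 2 gene identifiers named Atp5o, and the last 3 had no UMI in any class. The 2 Atp5o identifiers overlap at chr16:91925214-91931687 and chr16:91684398-91926982 on the minus strand, so the level given for Atp5o, that of the first, is uncertain. Members with near-identical pseudogene copies are uncertain as well, because reads that fit several genes are not counted. Ndufa4l2 lies at chr10:127514967-127517154 (plus strand, ENSMUSG00000040280), Cox4i2 at chr2:152754173-152765037 (plus, ENSMUSG00000009876), Cox4i1 at chr8:120668222-120674207 (plus), Ndufa4 at chr6:11900292-11907497 (minus) and Cox7b at chrX:106015700-106022450 (plus).

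RefSeq promoter windows (build GRCm38.p6, from 250 bases before to 50 bases after the gene start) were found for 74 of the 92 member symbols. Shown are the 100 bases before the start of 5 members that stood at an end of the ratios between libraries described below, with motif letters in capitals. Ndufa12 (chr10:94198935-94199034, plus), Cox7b (chrX:106015600-106015699, plus), Ndufc2 (chr7:97399903-97400002, plus) and Atp5k (chr5:108434400-108434499, minus) were among the members with the largest ratios of Vehicle. Ndufa3 (chr7:3617273-3617372, plus) was the member with the smallest ratio of Vehicle over Matrigel-only in stromal cells.
Ndufa12: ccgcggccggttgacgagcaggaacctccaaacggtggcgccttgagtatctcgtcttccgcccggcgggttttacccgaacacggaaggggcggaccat
Cox7b: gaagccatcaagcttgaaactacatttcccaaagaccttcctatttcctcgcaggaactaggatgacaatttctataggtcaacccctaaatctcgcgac
Ndufc2: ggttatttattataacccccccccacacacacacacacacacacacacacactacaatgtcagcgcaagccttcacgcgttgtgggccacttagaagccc
Atp5k: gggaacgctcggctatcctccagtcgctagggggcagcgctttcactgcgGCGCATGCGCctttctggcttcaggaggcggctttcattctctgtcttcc
Ndufa3: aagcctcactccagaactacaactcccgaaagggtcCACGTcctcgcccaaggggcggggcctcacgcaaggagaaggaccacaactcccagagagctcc

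Capitals mark GCGCA, any base and GCGC, the motif of nuclear respiratory factor 1 (NRF1), in Atp5k, and the core letters of the hypoxia response element, ACGTG read on the other strand, in Ndufa3. Both strands of the whole windows were searched. NRF1 letters were found in 19 of 74 members (25.7%) and in 5.19% of all 27018 genes with a window. CCGGAAG, letters of the ETS motif that GABP binds, was found in 18 members (24.3%) and in 9.93% of all genes. ACGTG was found in 17 members (23.0%) and in 21.8% of all genes. The median log2 ratio of Vehicle over Matrigel-only in stromal cells was 0.30 over the 19 members with the NRF1 letters and 0.27 over 52 without. It was 0.18 over 15 members with ACGTG and 0.33 over 56 without. Ndufa4l2 and Cox4i2 had no promoter window, so these counts and medians do not cover them. A match is a description of these letters and not a bound site.

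As a sum, the 93 genes were highest in Vehicle among the stromal cells, through nearly all complexes but not complex II. The summed level was 17141 CPM in Matrigel-only (interval 17084 to 17199), 21559 CPM in Vehicle (21500 to 21619) and 18023 CPM in Palo (17957 to 18089). In the median stromal cell the genes made up 1.62% of UMIs in Matrigel-only (quartiles 1.36 and 1.88), 2.12% in Vehicle (1.78 and 2.41) and 1.74% in Palo (1.49 and 2.01), so that the quartile ranges of the libraries overlapped. Without Cox4i2 and Ndufa4l2 the sum of the other 91 genes was 16619 CPM in Matrigel-only, 20161 CPM in Vehicle and 17477 CPM in Palo. Vehicle stromal cells were also the deepest, with a median of 17114 UMIs against 9082 in Matrigel-only and 12955 in Palo. Among stromal cells with 8000 to 20000 UMIs, the sum was 17344 CPM in Matrigel-only, 20603 CPM in Vehicle and 17626 CPM in Palo, at medians of 11106, 15045 and 13184 UMIs. Cytosolic ribosomal protein genes moved with the sum, with shares of stromal UMIs of 12.1% (Matrigel-only), 16.0% (Vehicle) and 12.9% (Palo), and the 5 genes that define stromal cells moved against it, at 7.52%, 5.33% and 8.51%. The part of these shares in the summed level was addressed only through gene ratios with other denominators, given with the other settings.

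In stromal cells of Matrigel-only, Vehicle and Palo, complex I summed to 4878, 5915 and 5075 CPM. Complex III summed to 1781, 2284 and 1863 CPM, and complex V to 4863, 5891 and 5285 CPM. Complex IV stood at 5085, 6956 and 5279 CPM, the widest gap between Vehicle and the others. These sums include Ndufa4l2 (504, 1092 and 533 CPM) and Cox4i2 (17.9, 306 and 13.7 CPM). By the median log2 ratio of its genes over Matrigel-only, complex IV (0.29) lay below complexes I (0.33), III (0.37) and V (0.35). Over Palo its median (0.30) lay above theirs (0.25, 0.27 and 0.19). Complex II ran the other way by a small amount, at 365, 346 and 359 CPM, with overlapping intervals of Vehicle (338 to 353) and Palo (349 to 368). The 8 complex I assembly genes summed to 170, 167 and 163 CPM, which overlapped within counting error (164 to 176, 162 to 173 and 157 to 170).

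**Figure D1:**
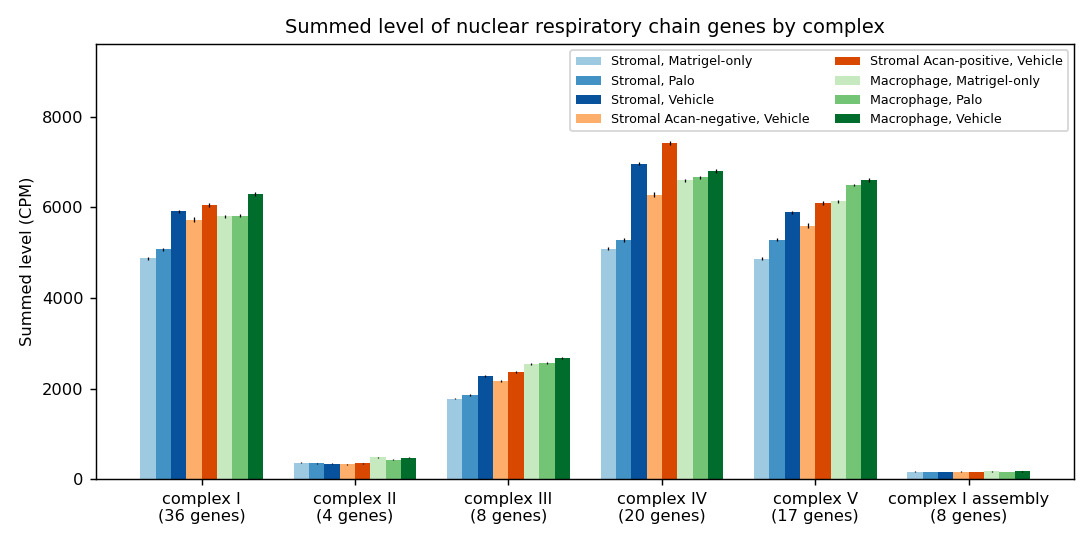
Summed level in CPM (y axis) of the members of each complex (x axis, with the number of genes) in the 3 stromal sums, the Acan-negative and Acan-positive parts of the Vehicle stromal cells and the 3 macrophage sums; bars are single libraries and error bars exact Poisson 95% intervals. Within stromal cells the Vehicle bar stands above Matrigel-only and Palo in complexes I, III, IV and V but not in complex II, and complex IV reaches 6956 CPM in Vehicle against 5085 and 5279 CPM. The complex IV bars include Cox4i2 and Ndufa4l2.

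Gene by gene, the log2 ratio of Vehicle was above 0 for 75 of 85 members over Matrigel-only and 73 of 84 over Palo, against 47.6% and 49.2% of all genes. These ratios were taken of CPM with 5 CPM added, for members with a mean of at least 10 CPM, and a member was counted as higher or lower from 1.2-fold. For Vehicle over Matrigel-only, 46 of 85 members were higher and 2 lower, with a median log2 ratio of 0.29, while 23.1% of all 8728 genes were higher and 27.3% lower, with a median of -0.02. For Vehicle over Palo, 34 of 84 members were higher and 0 lower, with a median of 0.20, while 20.3% of all 8599 genes were higher and 22.5% lower, with a median of -0.01. The comparisons share the Vehicle library, so the second is not independent of the first. For Palo over Matrigel-only, 7 of 85 members were higher and 2 lower, with a median of 0.08, against 9.31% and 15% of 8685 genes and a median of -0.02, so that the share of members higher (8.24%) was close to the background. At 1.5-fold, 6 members were higher and 0 lower in Vehicle than in Matrigel-only (backgrounds 8.78% and 13.3%), 3 were higher and 0 lower in Vehicle than in Palo (7.69% and 9.98%), and 0 were past that limit in either direction for Palo over Matrigel-only (1.32% and 4.1%). With only the Vehicle stromal cells that lacked Acan, the counts higher were 37 of 86 over Matrigel-only and 20 of 85 over Palo, with medians of 0.24 and 0.16 and backgrounds of 20.1% and 16.3%. The comparison with Palo weakened most with a stricter stromal limit: among cells with at least 5% of UMIs from the 5 stromal genes, 15 of 85 members were higher and 3 lower (median 0.13), against 16.9% and 22.8% of all genes. The share higher was thus near the background. That limit kept 702 of 1373 Vehicle, 1002 of 1184 Palo and 1589 of 2085 Matrigel-only stromal cells. Over Matrigel-only 33 were then higher and 3 lower (median 0.21), against 21.2% and 25.8%.

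**Figure D2:**
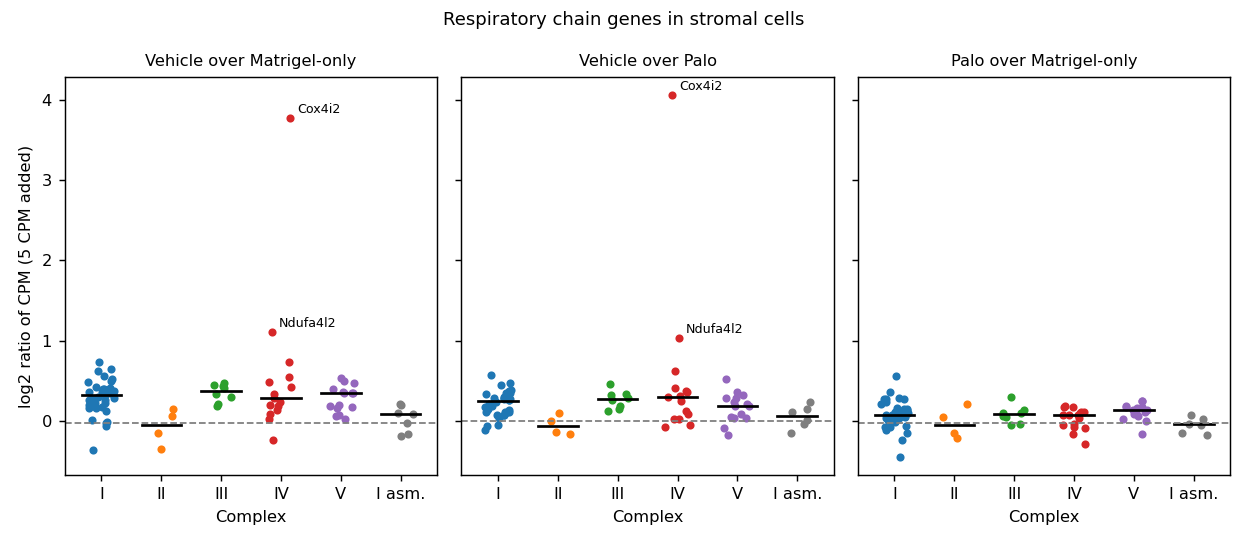
Each point is a member, grouped by complex on the x axis, with its log2 ratio of CPM (5 CPM added) in stromal cells on the y axis, for Vehicle over Matrigel-only, Vehicle over Palo and Palo over Matrigel-only; black lines are medians of the complex and the dashed line is the median of all genes that passed the same level. Most points of complexes I, III, IV and V lie above the dashed line in the first 2 panels, complex II lies around it, and Cox4i2 (3.77 and 4.05) and Ndufa4l2 (1.11 and 1.03) stand apart.

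In complex I, which takes electrons from NADH, 24 of 36 genes were higher and 1 was lower in Vehicle than in Matrigel-only stromal cells (all genes 23.1% and 27.3%), with a median log2 ratio of 0.33. Over Palo, 17 were higher and 0 lower (median 0.25; all genes 20.3% and 22.5%), and Palo over Matrigel-only had 6 higher and 1 lower (median 0.07; all genes 9.31% and 15%). Ndufa12, an accessory subunit, had 62.4 CPM in Matrigel-only, 107 CPM in Vehicle and 94.1 CPM in Palo, so both libraries with rhBMP2 stood above the one without. It was 1.72-fold higher in Vehicle (1.61 to 1.84) and 1.51-fold higher in Palo (1.40 to 1.63) than in Matrigel-only. Ndufv2, an iron-sulphur subunit of the part that binds NADH, had 64.2, 101 and 83.8 CPM in the same order. Ndufs5, Ndufs8 and Ndufb9 followed the same order, with 162, 229 and 197 CPM, 50.6, 67.7 and 62.5 CPM, and 160, 238 and 195 CPM. Ndufc2, an accessory subunit of the membrane arm, was high in Vehicle alone, with 132, 209 and 139 CPM. Ndufa5 showed the same form with 134, 190 and 136 CPM, a ratio of 1.42 (1.36 to 1.49) over Matrigel-only and 1.40 (1.33 to 1.48) over Palo. Ndufa3 ran against the others, with 188 CPM in Matrigel-only, 145 CPM in Vehicle and 137 CPM in Palo. It was the lowest member of complex I in both libraries with rhBMP2 relative to Matrigel-only (log2 ratios -0.37 in Vehicle and -0.45 in Palo). Ndufv3 was lower in Palo (262 CPM) than in Matrigel-only (309 CPM) or Vehicle (296 CPM), and Ndufa1 differed little, with 137, 136 and 147 CPM.

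Complex II is also the succinate dehydrogenase of the citric acid cycle. Of its 4 genes, 0 were higher in Vehicle than in Matrigel-only and 1 was lower (all genes 23.1% and 27.3%). Over Palo, none passed the limit in either direction (all genes 20.3% and 22.5%). Sdha, the flavoprotein that oxidises succinate, had 81.0 CPM in Matrigel-only, 72.6 CPM in Vehicle and 72.4 CPM in Palo. Sdhb, the iron-sulphur subunit, had 84.7, 88.4 and 99.2 CPM. Sdhc and Sdhd anchor the complex in the membrane, and they differed in direction, with 109, 84.7 and 93.5 CPM for Sdhc and 89.9, 100 and 93.4 CPM for Sdhd. The ratio of Vehicle over Matrigel-only was 0.775 for Sdhc (0.729 to 0.824). The median log2 ratios of complex II were -0.05 for Vehicle over Matrigel-only, -0.07 for Vehicle over Palo and -0.05 for Palo over Matrigel-only.

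In complex III, 6 of 8 genes were higher in Vehicle than in Matrigel-only (all genes 23.1%) and 4 of 8 were higher than in Palo (20.3%), with medians of 0.37 and 0.27. The 8 genes lay close together, from 0.19 for Uqcrc1, a core subunit, to 0.47 for Uqcrb. Uqcrb had 221, 309 and 244 CPM, and Uqcr11 had 298, 398 and 288 CPM, in Matrigel-only, Vehicle and Palo. Uqcr11 was the member most above Palo, by 1.38-fold (1.33 to 1.43), and was about level in Palo and Matrigel-only (0.969, 0.932 to 1.01). Uqcrfs1, the Rieske iron-sulphur protein, had 58.3, 81.6 and 72.9 CPM, and was the 1 member of complex III higher in Palo than in Matrigel-only (1.25-fold, 1.15 to 1.36).

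Complex IV, cytochrome c oxidase, held the genes with the largest differences. Of 15 members with enough counts, 8 were higher in Vehicle than in Matrigel-only (all genes 23.1%) and 8 were higher than in Palo (20.3%). In either comparison 0 were lower (all genes 27.3% and 22.5%). Cox4i2, the alternative subunit 4, had 17.9 CPM in Matrigel-only, 306 CPM in Vehicle and 13.7 CPM in Palo. The ratio was 17.1 over Matrigel-only (15.4 to 19.1) and 22.3 over Palo (19.5 to 25.7), and Palo was below Matrigel-only by a smaller step (0.768, 0.645 to 0.911). Ndufa4l2 had 504, 1092 and 533 CPM, which is 2.17-fold over Matrigel-only (2.12 to 2.22) and 2.05-fold over Palo (2.00 to 2.10). Their usual counterparts differed far less: Cox4i1 had 501, 591 and 477 CPM, and Ndufa4 had 266, 357 and 300 CPM. Ndufa4 still counted as higher in Vehicle than in Matrigel-only, and Cox4i1 as higher than in Palo. Cox7b, a small membrane subunit, was the next member, with 232, 387 and 250 CPM and ratios of 1.67 (1.61 to 1.73) and 1.55 (1.49 to 1.61). Cox5a, which sits beside subunit 4, had 219, 322 and 249 CPM, and Cox7c had 550, 772 and 581 CPM. Cox7a2, with 324, 411 and 333 CPM, and Cox6a1, with 250, 306 and 235 CPM, were the other 2 above the limit in both comparisons. Among those within it were Cox6c with 614, 699 and 661 CPM, Cox6b1 with 467, 513 and 503 CPM and Cox8a with 683, 726 and 666 CPM. Cox7a2l, which joins complexes III and IV into supercomplexes, had 152, 128 and 135 CPM. Among the complex IV members with enough counts, it had the lowest ratio of Vehicle over Matrigel-only and of Vehicle over Palo.

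Within its pair, Cox4i2 made up 3.44% of Cox4i UMIs in Matrigel-only stromal cells (3.10 to 3.81%), 34.1% in Vehicle (33.5 to 34.8%) and 2.79% in Palo (2.44 to 3.18%). Ndufa4l2 made up 65.5%, 75.4% and 64.0% of the UMIs of its pair with Ndufa4. Alternative versions of the other subunits of complex IV were rare and did not share this form. Cox7a1 was 3.33%, 1.90% and 3.11% of Cox7a1 and Cox7a2, Cox6b2 was 2.57%, 2.41% and 2.57% of the Cox6b pair, and Cox6a2 was at most 0.179% of the Cox6a pair. Cox8b had 0 of 13689, 17124 and 10543 UMIs of the Cox8a and Cox8b pair. Among the 3 genes that encode the same c subunit of ATP synthase, Atp5g2 took 41.0%, 49.1% and 42.8% of UMIs, Atp5g1 30.6%, 26.6% and 31.9%, and Atp5g3 28.4%, 24.4% and 25.3%.

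**Figure D3:**
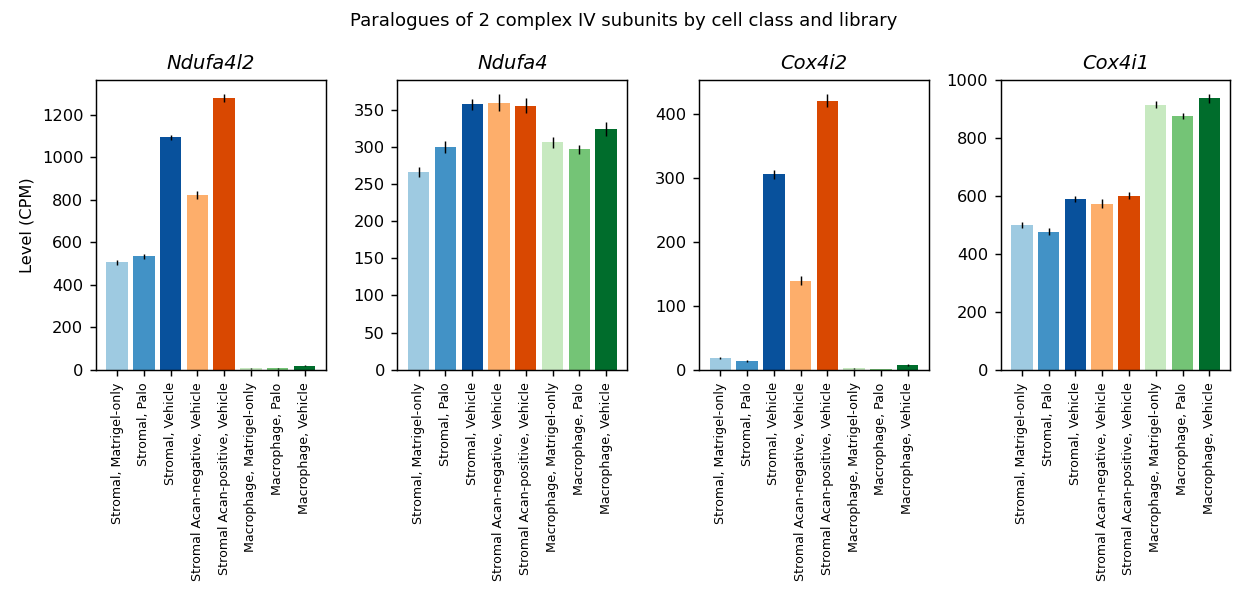
Level in CPM (y axis) of Ndufa4l2, Ndufa4, Cox4i2 and Cox4i1 in the 8 sums of cells (x axis); bars are single libraries, error bars exact Poisson 95% intervals, and each gene has its own scale from 0. Cox4i2 is at 306 CPM in Vehicle stromal cells and at 17.9 CPM or less in the stromal cells of the other libraries, and both Ndufa4l2 and Cox4i2 are near 0 in macrophages, where Cox4i1 and Ndufa4 are present.

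More cells held the alternative versions in Vehicle, at equal depth. Each stromal cell was thinned to 3100 UMIs, and the shallower cells, 207 of Matrigel-only, 70 of Vehicle and 54 of Palo, were dropped. Cox4i2 was then detected in 4.08% of Matrigel-only (3.23 to 5.08%), 47.6% of Vehicle (44.9 to 50.3%) and 3.61% of Palo stromal cells (2.60 to 4.87%), and without thinning in 9.64%, 71.5% and 10.7%. Ndufa4l2 was detected in 46.1%, 79.7% and 56.8% after thinning and in 56.4%, 88.5% and 73.4% before. In macrophages thinned to the same depth, Cox4i2 was found in 0.677%, 1.67% and 0.330% and Ndufa4l2 in 1.67%, 4.65% and 1.75% of cells. Their unthinned median depths were 3090.5, 3646 and 4254 UMIs, and 2920 of 5812, 1325 of 3253 and 1355 of 5661 macrophages were dropped as shallower. Thinned to 1400 UMIs, with 567, 303 and 137 dropped, macrophages held Cox4i2 in 0.268%, 0.980% and 0.158%. Ndufa4l2 was then found in 0.926%, 2.69% and 0.916%. The level of Ndufa4l2 in macrophages was 1.23%, 1.80% and 1.13% of that in stromal cells of the same library. In the Matrigel-only library, 4 stromal markers gave 0.838% (Pdgfra), 1.26% (Prrx1), 0.859% (Postn) and 0.578% (Col1a1). In Vehicle they gave 2.26%, 1.92%, 1.39% and 0.941%, and in Palo 0.622%, 0.725%, 0.555% and 0.375%. The Ndufa4l2 share thus lay among those of the markers in Matrigel-only and Vehicle and above all 4 in Palo. How much of the macrophage signal was free RNA or stromal RNA in the same droplet was not tested. The macrophage values of Cox4i2 rested on 45, 102 and 28 UMIs and were 12.4%, 2.32% and 7.44% of the stromal level.

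Cox4i2 and Ndufa4l2 are also known from pericytes, the mural cells of small vessels. The list of 7 pericyte genes summed to 61.5, 98.8 and 48.1 CPM in Matrigel-only, Vehicle and Palo stromal cells. Its Vehicle level lay mainly in Cspg4 (11.3, 79.6 and 15.3 CPM), a gene that chondrocytes also express. Notch3 (3.44, 5.93 and 4.04 CPM) and Mcam (0.249, 3.90 and 1.14 CPM) were also highest in Vehicle, at low levels. Kcnj8 (30.1, 6.74 and 18.3 CPM) and Abcc9 (15.8, 2.37 and 8.78 CPM) were lowest in Vehicle, Rgs5 had 0.599, 0.254 and 0.568 CPM, and Higd1b had 0 UMIs in each. The part of pericytes in the levels of Cox4i2 and Ndufa4l2 was not tested. Markers of endothelial cells summed to 57.7, 5.89 and 34.5 CPM. This sum lay mainly in Kdr (17.8, 2.54 and 11.6 CPM) and Tek (39.1, 2.37 and 22.1 CPM). Pecam1 (0.748, 0.805 and 0.758 CPM) and Cdh5 (0.0998, 0.170 and 0.0632 CPM) were low in each library and not lowest in Vehicle. Markers of early fibroblasts (Pi16, Dpp4, Clec3b and Cd34) summed to 2920, 294 and 1471 CPM, opposite in order to the respiratory chain genes, and cycling genes summed to 257, 353 and 275 CPM. Without the stromal cells that held a Pi16 or Dpp4 UMI, 33 of 86 members were higher and 4 lower in Vehicle than in Matrigel-only (median 0.21), against 18.7% and 28.3% of all genes. Over Palo, 37 of 84 were then higher and 0 lower (median 0.22), against 19.9% and 24.2%. Without the stromal cells that held a cycling gene UMI, 1653 Matrigel-only, 736 Vehicle and 824 Palo cells remained. Of 85 members, 42 were then higher and 2 lower over Matrigel-only (median 0.26), against 22.4% and 28.5% of all genes. Over Palo, 24 of 85 were higher and 1 lower (median 0.16), against 20.3% and 24.1%.

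Inside the Vehicle library, the same 2 genes separated stromal cells with Acan from those without, and the other members hardly did. Over all members, 5 of 85 were higher and 2 lower in Acan-positive cells, with a median of 0.09, against 14.4% and 17.4% of 8478 genes and a median of -0.00. Cox4i2 had 421 CPM with and 139 CPM without Acan, a ratio of 3.02 (2.85 to 3.21), and Ndufa4l2 had 1280 and 822 CPM, a ratio of 1.56 (1.52 to 1.60). They were the 2 members higher at 1.5-fold (background 3.87%), where 0 were lower (6.22%). Even the Acan-negative Vehicle cells stood above the stromal cells of the other libraries in both genes. These cells were not free of cartilage genes. Their chondrocyte list summed to 278 CPM, against 55.3 CPM in Matrigel-only and 60.4 CPM in Palo stromal cells, and Sox9 had 212 CPM against 53.5 and 57.3 CPM. The other members above the limit were Atp5g1 (352 against 276 CPM), Ndufa6 (147 against 120 CPM) and Cox6a1 (330 against 272 CPM), and the 2 below it were Cox6b2 (11.1 against 15.0 CPM) and Ndufaf4 (26.6 against 33.3 CPM). Cox7a1, under the level needed for a ratio, had 5.10 CPM with and 12.1 CPM without Acan, or 1.18% against 3.02% of its pair. Cox4i1 (602 against 574 CPM) and Ndufa4 (355 against 359 CPM) were near level.

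Along the Acan level itself, Cox4i2 climbed at each step and Ndufa4l2 only after the second. Vehicle stromal cells were set into 594 with no Acan UMI, 159 with fewer than 5, 265 with 5 to under 20 and 355 with 20 or more Acan UMIs per 10000 UMIs, at medians of 16422.5, 19787, 16879 and 17221 UMIs. Cox4i2 had 139, 192, 382 and 563 CPM in these steps, and Ndufa4l2 had 822, 847, 1209 and 1545 CPM. Between the cells with no Acan UMI and those with fewer than 5, the Ndufa4l2 intervals overlapped (804 to 841 and 815 to 880 CPM). Cox4i1 moved from 574 to 612 CPM and Ndufa4 lay between 340 and 371 CPM. The other 91 members summed to 19319, 20230, 20617 and 21093 CPM. Col2a1, the main collagen of cartilage, had 24.2, 44.2, 1028 and 5147 CPM, and the glycolysis list had 11449, 12438, 15931 and 18338 CPM.

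**Figure D4:**
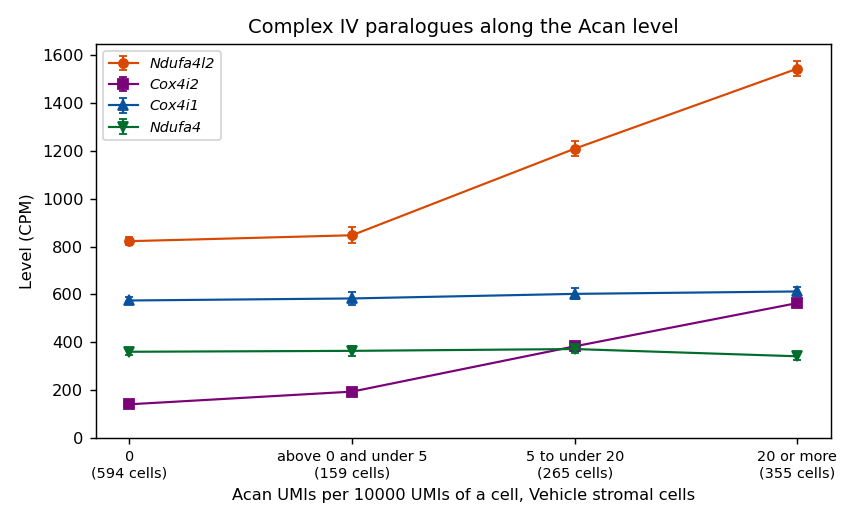
Level in CPM (y axis) of Ndufa4l2, Cox4i2, Cox4i1 and Ndufa4 in Vehicle stromal cells by their Acan UMIs per 10000 UMIs (x axis, 4 steps with the number of cells); points are sums over the cells of 1 library and error bars exact Poisson 95% intervals. Cox4i2 goes from 139 to 563 CPM and Ndufa4l2 from 822 to 1545 CPM between the first and the last step, while Cox4i1 and Ndufa4 stay near their first values.

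In complex V, the ATP synthase, 8 of 15 genes were higher in Vehicle than in Matrigel-only stromal cells (all genes 23.1%) and 5 were higher than in Palo (20.3%), with medians of 0.35 and 0.19. Atp5g2 had 408, 593 and 486 CPM in Matrigel-only, Vehicle and Palo, the largest ratio of the complex over Matrigel-only (1.45, 1.41 to 1.49). Atp5b, the catalytic beta subunit, had 380, 540 and 431 CPM, and Atp5a1, the alpha subunit beside it, had 300, 416 and 323 CPM. Atp5k, a small membrane subunit, had 179, 230 and 158 CPM, and so was highest in Vehicle and lowest in Palo, with ratios of 1.29 (1.23 to 1.34) and 1.45 (1.38 to 1.52). Atp5e, the epsilon subunit, was nearly level with 554, 563 and 597 CPM, and Atp5g1 was highest in Palo, with 304, 321 and 362 CPM. For Palo over Matrigel-only, 0 of 15 members passed the limit in either direction (all genes 9.31% higher and 15% lower), with a median of 0.14.

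None of the complex I assembly factors with enough counts passed the 1.2-fold limit in stromal cells in either comparison with Vehicle (7 tested over Matrigel-only, where 23.1% of all genes were higher and 27.3% lower, and 6 over Palo, where 20.3% and 22.5% were). Their medians were 0.08 and 0.07. Ndufaf8 had 56.8, 49.3 and 55.2 CPM, Ndufaf2 had 27.2, 23.8 and 23.4 CPM and Ndufaf5, the highest ratio over Matrigel-only (0.21), had 8.93, 11.1 and 6.57 CPM.

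Macrophages of the 3 libraries differed less in these genes. The members summed to 21728 CPM in Matrigel-only (21664 to 21792), 23006 CPM in Vehicle (22928 to 23085) and 22142 CPM in Palo (22086 to 22198), and the median cell had 1.99%, 2.04% and 2.08% of UMIs from them. For Vehicle over Matrigel-only, 16 of 83 members were higher and 3 lower, with a median of 0.12, against 19.3% and 17.1% of 8120 genes and a median of 0.01, so the share higher (19.3%) equalled the background. For Vehicle over Palo, 17 of 82 were higher and 3 lower, with a median of 0.14, below the background of 34.3% higher and beside 11.1% lower, where the median of all 7968 genes was itself 0.15. For Palo over Matrigel-only, 6 of 80 were higher and 7 lower, with a median of -0.02, against 7.41% and 29.9% of 7958 genes and a median of -0.14. The shift of all genes depended on the scaling: with trimmed-mean (TMM) factors, the all-gene medians of the comparisons with Palo became -0.05 and 0.00, and the members split into 4 higher and 23 lower for Vehicle over Palo (14.4% and 25% of all genes) and 26 higher and 1 lower for Palo over Matrigel-only (16.2% and 12.9%). No direction is therefore given for the macrophage genes between Palo and the other libraries. At 1.5-fold, 4 members were higher and 0 lower in Vehicle than in Matrigel-only macrophages (backgrounds 6.31% and 4.73%), 3 were higher and 0 lower in Vehicle than in Palo (9.04% and 3.23%), and 0 passed in either direction for Palo over Matrigel-only (1.73% and 4.2%). The macrophage class of Vehicle also held more UMIs of several other blood cells, with 37.6 CPM of granulocyte, 28.1 CPM of T and NK cell and 26.6 CPM of basophil markers, against at most 7.71, 2.46 and 1.79 CPM in the other libraries. Dendritic cell markers summed to 99.7, 228 and 173 CPM in Matrigel-only, Vehicle and Palo macrophages. B cell markers were highest in Palo, with 0.147, 0.766 and 7.11 CPM. The part of such cells in these values was not tested.

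With CPM scaling, some members nevertheless had the same order in macrophages as in stromal cells. The TMM factors of Matrigel-only, Vehicle and Palo macrophages were 0.962, 1.01 and 0.859, so the place of Palo in this order is not read. Ndufa12 had 54.9, 95 and 78.0 CPM in Matrigel-only, Vehicle and Palo macrophages, and Cox7b had 261, 439 and 287 CPM. The ratio of Vehicle over Matrigel-only for Cox7b was 1.68 (1.62 to 1.75) in macrophages and 1.67 (1.61 to 1.73) in stromal cells. Ndufv2 had 72.5, 107 and 93.1 CPM, and Ndufa3 had 198, 162 and 134 CPM, again highest in Matrigel-only. For Vehicle over Matrigel-only, 14 of 82 members were higher in both classes (17.1%), against 8.73% of 7087 genes, 1 was lower in both (Ndufa3; background 8.04%) and 0 went opposite ways (5.29%). The 14 were Atp5b, Atp5f1, Cox7b, Ndufa12, Ndufa4l2, Ndufa5, Ndufa8, Ndufb10, Ndufb6, Ndufb9, Ndufs3, Ndufs5, Ndufv2 and Uqcrb, of which Ndufa4l2 had 6.19 CPM in Matrigel-only and 19.6 CPM in Vehicle macrophages. Those Ndufa4l2 levels were 1.23% and 1.80% of the stromal ones, and the part of stromal RNA in them was not tested. For Vehicle over Palo, 12 of 81 were higher in both (background 9.86%), 0 lower in both (3.88%) and 1, Atp5g2, went opposite ways (5.92%). For Palo over Matrigel-only, 4 of 80 were higher in both (Ndufa12, Ndufa8, Ndufv2 and Uqcrfs1, background 2.18%). In that comparison 1 was lower in both (Ndufa3, 7.4%) and 0 went opposite ways (1.05%). The counts in both classes were made with CPM scaling alone. For Vehicle over Matrigel-only, 16 macrophage members were higher with that scaling (all genes 19.3%). With TMM factors 11 were higher (15.1%), and in 1 range of UMIs 10 were (20.1%). In stromal cells alone, 54.1% of members were higher in that comparison, against 23.1% of all genes. The excess in both classes is therefore not read as a shared response. With TMM factors, macrophage members were 4 higher and 23 lower for Vehicle over Palo (all genes 14.4% and 25%). They were 26 higher and 1 lower for Palo over Matrigel-only (16.2% and 12.9%). No direction is therefore drawn from the both-class counts with Palo. The classes of a library were prepared and sequenced together, so a like order in both can also be a property of the library, and these cannot be told apart.

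Stromal cells were also set against the macrophages of the same library. By CPM the members stood lower in the Matrigel-only and Palo libraries, while in Vehicle the share lower was near the background. The size of this difference depended on the denominators. In the Matrigel-only library 4 of 84 members were higher and 43 lower in stromal cells, with a median of -0.28, against 35.2% and 36.4% of 8951 genes and a median of -0.01. In the Vehicle library 8 of 85 were higher and 30 lower, with a median of -0.12, against 35.3% and 37.1% of 8894 genes and -0.03. In the Palo library 10 of 83 were higher and 37 lower, with a median of -0.19, against 42.9% and 31.4% of 8773 genes and 0.12. Few members were thus higher in stromal cells than the background of all genes, while the share lower exceeded the background in the Matrigel-only (51.2%) and Palo (44.6%) libraries and not in the Vehicle library (35.3%). With TMM factors the Palo library had 4 members higher and 58 lower, against 31.5% and 42.7% of all genes and an all-gene median of -0.13. With denominators without mitochondrially encoded and stromal genes, 31 of 85 members were lower in Matrigel-only (all genes 31.7%). In Vehicle and Palo, 23 of 86 and 26 of 83 were then lower (34.1% and 27.5%). The shares lower in Matrigel-only and Palo thus lay nearer the background. Members higher were then 12, 11 and 13 (39.8%, 38.3% and 48%), in the same order. The Vehicle median moved to -0.01 among cells within 1 range of UMIs (8000 to 20000 for stromal cells and 2000 to 6000 for macrophages) and to -0.02 without the macrophages that held a stromal gene UMI. At 1.5-fold, 3 members were higher and 14 lower in the Matrigel-only library (backgrounds 23.6% and 23.2%), 3 and 8 in the Vehicle library (24.1% and 25.7%) and 2 and 14 in the Palo library (28.7% and 21.6%). All 4 complex II genes were lower in stromal cells of the Matrigel-only and Vehicle libraries, and 2 of 4 in the Palo library.

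In all 3 libraries, 27 of 82 members were lower in stromal cells (32.9%, against 27% of 8308 genes) and 3 were higher (3.66%, against 27.6%). Cox5a had 219, 322 and 249 CPM in stromal cells and 565, 612 and 521 CPM in macrophages, and Ndufa6, an accessory subunit of complex I, had 109, 136 and 97.8 CPM against 280, 251 and 270 CPM. Cox7a2l had 152, 128 and 135 CPM against 289, 239 and 296 CPM. Cox4i1, with 501, 591 and 477 CPM against 916, 939 and 877 CPM, was lower in each as well. Ndufs8, Ndufb8 and Uqcrfs1 were among the others lower in each, with Ndufb8 at 129, 175 and 142 CPM against 251, 300 and 260 CPM. The 3 genes higher in stromal cells of each library were Ndufa4l2 and 2 assembly factors at low levels, Ndufaf2 (27.2, 23.8 and 23.4 CPM against 15.6, 11.7 and 13.4 CPM) and Ndufaf7 (15.6, 17.1 and 15.0 CPM against 10.4, 10.4 and 8.34 CPM). The stromal level of Ndufa4l2 was 81.5 times that of macrophages in Matrigel-only (68.4 to 98.0), 55.6 times in Vehicle (49.4 to 62.8) and 88.6 times in Palo (76.0 to 104). How much of the macrophage level was stromal RNA was not tested, so differences between the 3 folds are not read.

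**Figure D5:**
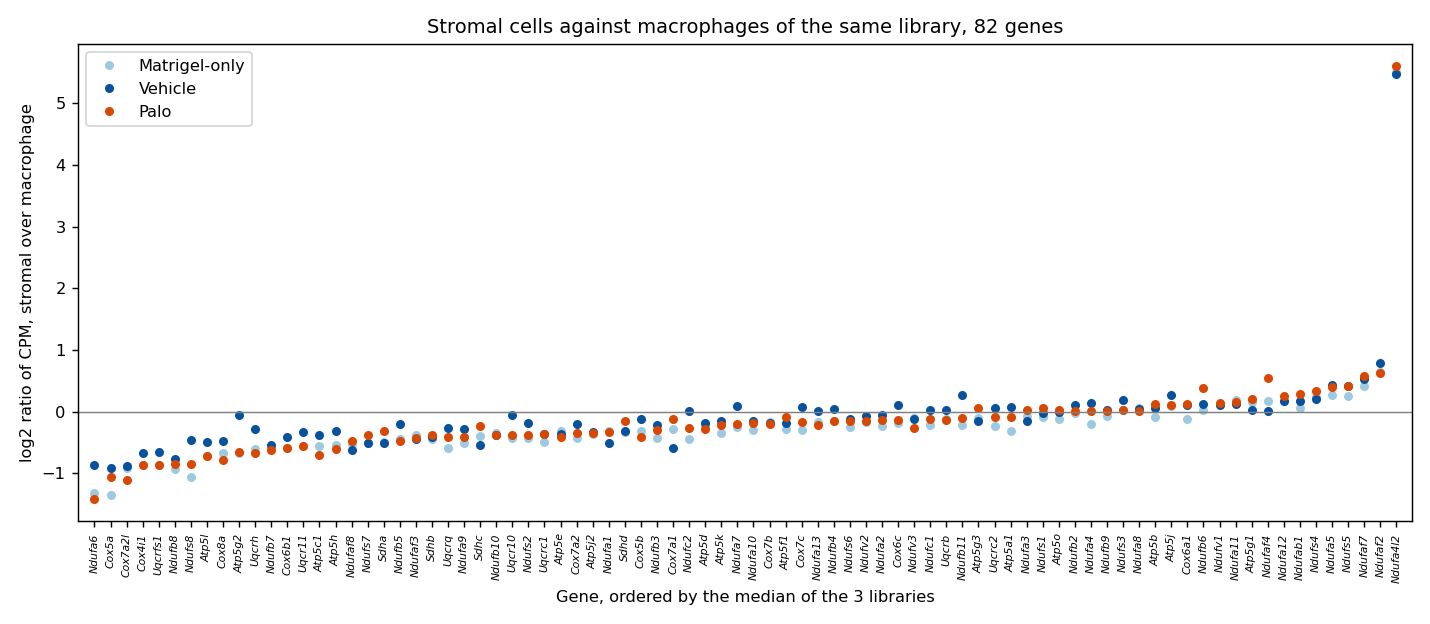
Log2 ratio of CPM with 5 CPM added, stromal cells over macrophages of the same library (y axis), for the 82 members with enough counts in all 3 libraries (x axis, ordered by their median); each point is 1 library. More points lie below than above 0, Ndufa6, Cox5a and Cox7a2l are lowest, and Ndufa4l2 stands above all others at 5.48 to 5.61.

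Other mitochondrial gene groups were compared in stromal cells in the same way, against 23.1% of all genes higher and 27.3% lower over Matrigel-only, 20.3% and 22.5% for Vehicle over Palo, and 9.31% and 15% for Palo over Matrigel-only. The mitochondrial ribosome, which makes the subunits encoded by mitochondrial DNA, had 39 of 75 genes higher and 0 lower in Vehicle than in Matrigel-only (median 0.29), 17 of 75 higher than in Palo (median 0.14, a share near the background) and 18 of 74 higher in Palo than in Matrigel-only (median 0.16). The protein import machinery had 8 of 21 higher and 2 lower over Matrigel-only, with Tomm20, the outer membrane receptor, at 109, 206 and 136 CPM in Matrigel-only, Vehicle and Palo. The 13 subunits encoded by mitochondrial DNA were 3 higher and 1 lower over Matrigel-only (median 0.12, a share higher near the background) and 6 higher and 0 lower over Palo (median 0.20), and 5 were lower in Palo than in Matrigel-only. Their levels are bounded by the limit of 5% mitochondrial UMIs per cell. Of these, mt-Nd2 had 702, 947 and 559 CPM and mt-Nd6 had 11.5, 24.8 and 10.7 CPM. Other assembly factors and electron carriers had 8 of 31 higher and 0 lower over Matrigel-only (median 0.10), with Cycs, the electron carrier cytochrome c, at 96.3, 142 and 106 CPM, and 3 of 30 higher and 1 lower over Palo (median -0.03).

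The citric acid cycle had 2 of 17 genes higher and 0 lower in Vehicle than in Matrigel-only (median 0.06), one of them Mdh2, the malate dehydrogenase (143 against 204 CPM), and 3 higher and 0 lower over Palo (median 0.07). Both shares higher were below the backgrounds of 23.1% and 20.3%. Fatty acid oxidation had 1 of 11 higher and 3 lower over Matrigel-only (median -0.01), with Cpt1a, which admits fatty acids to the mitochondrion, at 45.1, 14.1 and 32.5 CPM. Regulators of mitochondrial biogenesis had 0 of 7 higher and 1 lower over Matrigel-only and 0 in either direction over Palo, and Ppargc1a had at most 0.339 CPM. A list named respiration brakes, of genes linked to restraint of respiration or removal of mitochondria, had 7 of 8 higher and 1 lower over Matrigel-only (median 0.60). Over Palo, 7 of its genes were higher and 0 lower (median 0.81). The name is only that of the list, and the effect of each gene on respiration was not tested. Among them were Higd1a, with 603, 1205 and 530 CPM, Bnip3, a mitophagy receptor, with 173, 384 and 94.0 CPM, and Pdk1, which inhibits pyruvate dehydrogenase, with 78.4, 120 and 64.3 CPM. Glycolysis had 13 of 14 genes higher over Matrigel-only (median 1.0) and 14 of 14 over Palo (median 0.87), with Pgk1 at 732, 1619 and 752 CPM and Pfkp at 95.1, 261 and 72.4 CPM. Cytosolic ribosomal proteins had 64 of 86 higher and 3 lower over Matrigel-only (median 0.45) and 54 higher and 1 lower over Palo (median 0.32), both above the respiratory chain medians of 0.29 and 0.20.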

How the data were processed

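Droplet reads of 3 single-cell libraries were processed by the authors with Cell Ranger 3.0.2 against mm10, and the deposited files hold raw UMI counts of 31053 genes per barcode, without normalization. Seurat 3 was also named in the submitters' processing notes; its output was not used here. The kit chemistry and the number of masses per library are not given in the labels used here. Groups were taken from the labels.

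Barcodes with fewer than 200 or more than 6000 genes, or over 5% mitochondrial UMIs, were left out as in the study's methods, which used them against doublets and cells of poor quality; no doublet caller was run, and 23.0 to 27.8% of stromal cells held a Csf1r or C1qa UMI. Counts were summed over the cells of a class and library and scaled to CPM, with Poisson intervals (ratios conditional binomial, shares binomial, all exact, 95%). Log2 ratios used 5 CPM added and a mean of at least 10 CPM, and a share of cells was computed after thinning by the hypergeometric formula. The calculation was tested on simulated data. Depth ranged from 44252421 to 46901673 UMIs per library. Python 3.11.15 (numpy 2.4.6, scipy 1.17.1, pandas 2.3.3, matplotlib 3.10.9) was used, and edgeR 4.0.16 in R 4.3.3 gave TMM factors only.

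Named were the 5 members with the highest and the 5 with the lowest log2 ratio in each comparison (not all are described), members with paralogues, the Sdh genes, the ends of each complex, and up to 4 genes per pathway list; other members were named after their values were seen. The pathway lists were other assembly factors and carriers, mitochondrially encoded subunits, citric acid cycle, fatty acid oxidation, biogenesis regulators, respiration brakes, glycolysis, mitochondrial ribosome, import and cytosolic ribosome. The members and lists were chosen with earlier results of these data known. Of 22 alternatives, 3 were added after the data were seen: denominators without cytosolic ribosomal proteins, Vehicle stromal cells without Acan, and 1 range of UMIs.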

Additional observations from a re-analysis of the deposited data

Results flagged for a closer look

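With CPM scaling, Atp5g2, one of 3 genes for the c subunit of ATP synthase, passed the 1.2-fold limit in opposite directions in stromal cells and macrophages. It was the 1 member to do so, in Vehicle over Palo, out of 81 members (1.23%), against 5.92% of 6906 genes. With TMM factors, 39 members were higher in stromal cells (all genes 22.9%) and 23 lower in macrophages (25%) for Vehicle over Palo. Members in opposite directions were not counted with that scaling. For Vehicle over Palo its log2 ratio was 0.29 in stromal cells (593 against 486 CPM) and -0.31 in macrophages (618 against 767 CPM), and -0.54 in macrophages with TMM factors. The difference between the classes was not tested, since each group was 1 library.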

How the results depend on the processing

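No paired analysis was possible because each group was 1 library; for the same reason no library could be left out. Of the medians under other settings, 156 lay within the order-statistic interval, over members, of the reported one and 17 did not, some of them with the other sign. In stromal cells the median log2 ratio stayed above 0 under all settings run for Vehicle over Matrigel-only (0.21 to 0.34) and Vehicle over Palo (0.13 to 0.25), lowest for the latter with the 5% stromal limit (0.13). With denominators without cytosolic ribosomal proteins, these medians were 0.34 and 0.25, against all-gene medians of 0.03 and 0.04. With denominators without mitochondrially encoded and stromal genes, they were 0.25 and 0.15, against -0.05 and -0.04. Palo over Matrigel-only moved to -0.019 without Pi16 or Dpp4 cells, to 0.11 with each cell weighted equally and to 0.032 in 1 range of UMIs. The macrophage median of Vehicle over Matrigel-only moved to 0.039 without macrophages that held a stromal UMI, to 0.047 with TMM and to 0.035 in 1 range of UMIs; with TMM, Vehicle over Palo moved to -0.085 and Palo over Matrigel-only to 0.13. Acan-positive over Acan-negative moved to 0.12 without cells that met both class rules, to -0.012 with the 5% limit, to 0.11 with equal weights and to 0.066 with denominators without mitochondrially encoded and stromal genes. Stromal over macrophage moved with TMM to -0.42 (Matrigel-only) and -0.47 (Palo), with the 5% limit to -0.28 (Vehicle) and with the denominators without mitochondrially encoded and stromal genes to -0.076 (Palo). Percentages in brackets in the counts that follow are the shares of all genes under the same setting. For Vehicle over Palo, 34 members higher (20.3%) became 15 with the 5% limit (16.9%) and 21 with those denominators (17.4%). Without Acan-positive cells they became 20 (16.3%). TMM also changed 10 higher and 37 lower (42.9% and 31.4%) to 4 and 58 (31.5% and 42.7%) for stromal over macrophage in Palo. It moved the all-gene median there from 0.12 to -0.13. For Vehicle over Matrigel-only in macrophages, 16 higher (19.3%) became 10 in 1 range of UMIs (20.1%). For Vehicle over Palo, 17 higher in macrophages (34.3%) became 10 with C1qa alone (30%) and 4 with TMM (14.4%). With TMM, 3 lower (11.1%) became 23 (25%). For Palo over Matrigel-only, 6 higher in macrophages (7.41%) became 11 without those that held a stromal UMI (9.04%) and 26 with TMM (16.2%). With TMM, 7 lower (29.9%) became 1 (12.9%). In stromal cells, 7 higher (9.31%) became 4 without Pi16 or Dpp4 cells (8.23%) and 3 in 1 range of UMIs (9.04%). The 5 members higher with Acan (14.4%) ranged from 2 with the 5% limit (13%) to 10. That highest count came with at least 5 Acan UMIs (16.4%) and in 1 range of UMIs (16%). For stromal over macrophage, 4 higher in Matrigel-only (35.2%) became 9 without Pi16 or Dpp4 cells (37.9%) and 12 with those denominators (39.8%). At a mean of at least 50 CPM they became 1 (34.7%). In Vehicle, 8 higher (35.3%) became 13 without cells above the 95th percentile of UMIs (36.1%). Without macrophages that held a stromal UMI they became 18 (36.5%), in 1 range of UMIs 15 (36.8%) and at 50 CPM 5 (35.2%). The 50 CPM level also took 10 higher in Palo (42.9%) to 6 (41.4%). At 1.5-fold, 46 members higher in Vehicle than in Matrigel-only (23.1%) became 6 (8.78%), and 16 higher in macrophages (19.3%) became 4 (6.31%). For stromal over macrophage in Matrigel-only, 43 lower (36.4%) became 14 (23.2%). Of all counts, 289 stayed within 1.5 times and 77 did not. Of the single-gene ratios that were followed, 3152 stayed, 812 moved and 2 were counted as reversed. Cox6b2 reversed for Acan-positive over Acan-negative with the 5% limit (0.00083). Ndufaf7 reversed for stromal over macrophage in Vehicle without macrophages that held a stromal UMI (-0.12). The count of reversals did not take in all changes of sign. For Vehicle over Palo in macrophages, 56 of 82 members had ratios above 0, while the median with TMM factors was -0.085. Cox4i2 kept a log2 ratio of 2.66 to 4.02 over Matrigel-only and 2.95 to 4.38 over Palo, and Ndufa4l2 0.70 to 1.31 and 0.62 to 1.14. The causes of these changes were not tested. The 3 libraries give counting error alone, and members under 10 CPM were not given ratios.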

Other observations

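Glycolysis genes were also higher in Vehicle macrophages: 11 of 13 genes were higher and 0 lower than in Matrigel-only macrophages, against 19.3% and 17.1% of all genes, with a median log2 ratio of 0.74 against 0.12 for the respiratory chain genes. Eno1, the enolase, had 64.2 CPM in Matrigel-only, 202 CPM in Vehicle and 181 CPM in Palo macrophages, and Pgk1, the phosphoglycerate kinase, had 528, 927 and 505 CPM. The respiration brakes list had 4 of 8 higher and 1 lower over Matrigel-only (median 0.25), with Bnip3 at 124, 207 and 44.2 CPM. The mitochondrial ribosome had 31 of 76 genes higher and 0 lower over Matrigel-only (median 0.22), while the cytosolic ribosome had 11 of 87 higher and 12 lower (median 0.05), both below those backgrounds. These sums share the libraries described in the report and had no replicate check.

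Within Vehicle stromal cells, the glycolysis list had 11 of 14 genes higher and 0 lower in Acan-positive cells (median 0.44) and the respiration brakes had 6 of 8 higher and 0 lower (median 0.42), against 14.4% and 17.4% of all genes and a median of 0.09 for the respiratory chain genes. Higd1a had 1443 CPM with and 862 CPM without Acan, and Ldha, which makes lactate, had 2544 and 1717 CPM. The mitochondrial ribosome had 3 of 75 genes higher and 1 lower (median 0.00), and the citric acid cycle had 0 of 17 past the limit in either direction (median -0.11).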
